A study of Homo sapiens with 15 samples.

Results

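Translation factors are the proteins that start and elongate polypeptide chains on the ribosome, and their mRNAs were followed here through inhibition of CDK7. The factors were chosen by name alone, as every gene annotated as protein-coding whose symbol begins with EIF1 to EIF6 or with EEF1 or EEF2, which gave 68 of the 58676 genes in the read-count table. The cells were PATU-8988T, an established human pancreatic cancer line. They were treated with 100 nM THZ1 for 4 h, 100 nM THZ1 for 24 h, 100 nM YKL-5-124 for 4 h or 100 nM YKL-5-124 for 24 h, or kept in 0.1% DMSO. Each of these 5 groups had 3 libraries, 15 in all. The labels give the DMSO libraries no time, and the same 3 served as reference at both times, so the comparisons with DMSO are not independent of each other. Nothing in the labels says that the libraries of a group came from separate cultures, so the p-values measure the spread between these libraries, which may be technical.

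CDK7 is a kinase of the general transcription factor TFIIH that phosphorylates RNA polymerase II and activates the cell cycle kinases. THZ1 is a covalent CDK7 inhibitor that also binds CDK12 and CDK13, and YKL-5-124 was described as a more selective covalent CDK7 inhibitor. In initiation, eIF2 carries the initiator tRNA to the small ribosomal subunit with eIF1, eIF1A, eIF3 and eIF5, while the cap complex eIF4F (eIF4E, eIF4G and the helicase eIF4A) brings in the mRNA. The eIF2 kinases and the eIF4E-binding proteins restrain these steps under stress and nutrient loss. In elongation, eEF1A delivers aminoacyl-tRNA and eEF2 moves the ribosome along, and many mRNAs of this machinery begin with a pyrimidine run, the TOP motif, that ties their translation to mTORC1.

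A filter on low counts left 62 of the 68 factors (53 EIF, 9 EEF) among the 14461 genes tested. EEF1AKMT4-ECE2, EEF1E1-BLOC1S5, EEF1G, EIF1AY, EIF4E1B and EIF4EBP3 did not pass it. EEF1G, the gamma subunit of the eEF1 exchange complex and an abundant mRNA in most cells, had 0 counts in all libraries, and another annotated gene covers 99.99% of its span on the same strand, so its level was not measured here. EIF3C and EIF3CL are near-identical copies and EIF5AL1 is a copy of EIF5A, so the split of reads within each of these sets is uncertain. EIF4A1 and EIF2B5 overlap genes on their own strand, as do EEF1AKMT4, EEF1E1, EIF4E3 and EIF4G1 over all or nearly all of their spans. EIF2A, EIF2B4, EIF2S2, EIF3C, EIF4B and EIF4ENIF1 lie mostly or wholly opposite another gene. The strand setting of the counting is not given, so the values of all these factors are uncertain too. Library totals ran from 15567057 to 22869590 counts. Values are CPM, each count divided by its library's total and scaled by the trimmed mean of M-values (TMM), and a change is called at an adjusted p under 0.05 (edgeR quasi-likelihood test, Benjamini-Hochberg over all genes tested). The epithelial markers KRT8 and KRT18 were high in every group, the mesenchymal marker VIM ran from 140.7 to 302.9 CPM and was highest at THZ1 24 h, the fibroblast (COL1A1, COL1A2, PDGFRB), endothelial and immune markers stayed at or under 7.25 CPM, and KRT19, a usual ductal marker, had at most 2 counts in any group. CDH1, an epithelial adhesion gene, was also low (at most 6.76 CPM).

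The THZ1 24 h libraries stood apart from the rest in composition, which bears on every comparison that uses them. Ribosomal protein mRNAs took 22.0% ± 1.18 of counts there and 10.7% ± 1.43 in DMSO (SD, n = 3), and mitochondrially encoded genes took 4.08% ± 0.538 and 1.01% ± 0.214. The slope of log level on transcript length was 0.425 ± 0.0394 in the THZ1 24 h libraries and 0.785 ± 0.0670 in DMSO, so counts rose less with length there. When libraries were scaled by their totals alone, the median log2 change of all genes moved by -1.12 at THZ1 24 h and by -0.26 at THZ1 4 h. No added RNA standard is named in the labels, so fewer cells and less RNA per cell cannot be told apart, and each change below is relative to the other mRNAs of its library. The 25 factors higher at THZ1 24 h had a median annotated exon length of 3840 bases and the 26 lower ones 6044.5 bases. The part of length and composition in each call was not tested. For some factors the value with the slope in the fit is given. The slope was 0.383 to 0.462 in the THZ1 24 h libraries and at least 0.675 in all others, so slope and group can hardly be told apart. Those values rest on slope differences within groups and cannot decide the part of length. Among the controls, DMSO replicate 2 had fewer ribosomal protein counts (9.04%) than replicates 1 and 3 (11.4% and 11.6%).

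At THZ1 4 h more factors rose than fell by TMM. By library totals more fell than rose, among the factors as among all genes. The rises by TMM were all under 2-fold. THZ1 24 h gave about as many rises as falls by TMM, and by library totals mostly falls, again as among all genes. By TMM, 18 of the rises and 20 of the falls were at least 2-fold, against 3570 and 5199 of all 14461 genes. YKL-5-124 had 1 factor called at 4 h by TMM, and at 24 h it gave mostly falls by both of these scalings. By TMM, 3 of these falls were at least 2-fold, against 353 of all 14461 genes. At THZ1 4 h, 24 of the 62 factors were higher and 8 lower than in DMSO, where 16.9% of all genes tested were higher and 25.1% lower. At THZ1 24 h, 25 were higher and 26 lower, against 32.3% and 44% of all genes. At YKL-5-124 4 h, 0 were higher and 1 lower, with 0.0553% and 0.463% of all genes called. At an unadjusted p under 0.05 these counts were 0 and 2, and DESeq2 called 0 and 2. At YKL-5-124 24 h, 3 were higher and 24 lower, with 8.92% and 12.7% of all genes called. The count of 24 lower factors came to 12 without DMSO replicate 1, 12 without DMSO replicate 3, 13 without YKL-5-124 24 h replicate 3, and 26 without DMSO replicate 2. The median log2 change of the 62 factors was 0.28, -0.025, 0.052 and -0.31 in these 4 comparisons, taken in the order just given, and that of all genes was 0, -0.37, 0.0043 and -0.037. By library totals, 5 factors were higher and 13 lower at THZ1 4 h, and 12 higher and 39 lower at THZ1 24 h. At YKL-5-124 24 h, 3 were higher and 17 lower. Of all 14461 genes, 583 were higher and 4631 lower at THZ1 4 h by this scaling, and 2266 and 9384 at THZ1 24 h. At YKL-5-124 24 h these counts of all genes were 2093 and 1186. The 5 rises at THZ1 4 h that kept their call by library totals were EIF2AK1, EIF3H, EIF3I, EIF3K and EIF4G2, and the 12 at THZ1 24 h were EEF1B2, EEF1D, EEF2, EIF2D, EIF3C, EIF3CL, EIF3H, EIF3I, EIF3K, EIF4G2, EIF5A and EIF5AL1. Among the falls at YKL-5-124 24 h, EEF2, EEF2K, EIF2S3L, EIF3F, EIF3J, EIF3M and EIF4E lost theirs. With the length slope in the fit, the THZ1 24 h rises of EEF1A1, EIF1AX, EIF2B1, EIF2S3, EIF3G, EIF3L, EIF4EBP1, EIF5AL1 and EIF6 and the falls of EEF2K, EIF2AK2, EIF2AK3 and EIF5B lost their call or turned. Relative to the summed ribosomal protein mRNAs, 0 factors were higher and 55 lower at THZ1 24 h, and 16 were higher and 2 lower at YKL-5-124 24 h. All genes shifted likewise, with 574 higher and 11721 lower at THZ1 24 h and 5125 and 199 at YKL-5-124 24 h. By TMM, 79 of 82 ribosomal protein genes were higher at THZ1 24 h and 45 lower at YKL-5-124 24 h. The reference itself thus set these directions, and the counts show nothing particular to the factors.

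**Figure D1:**
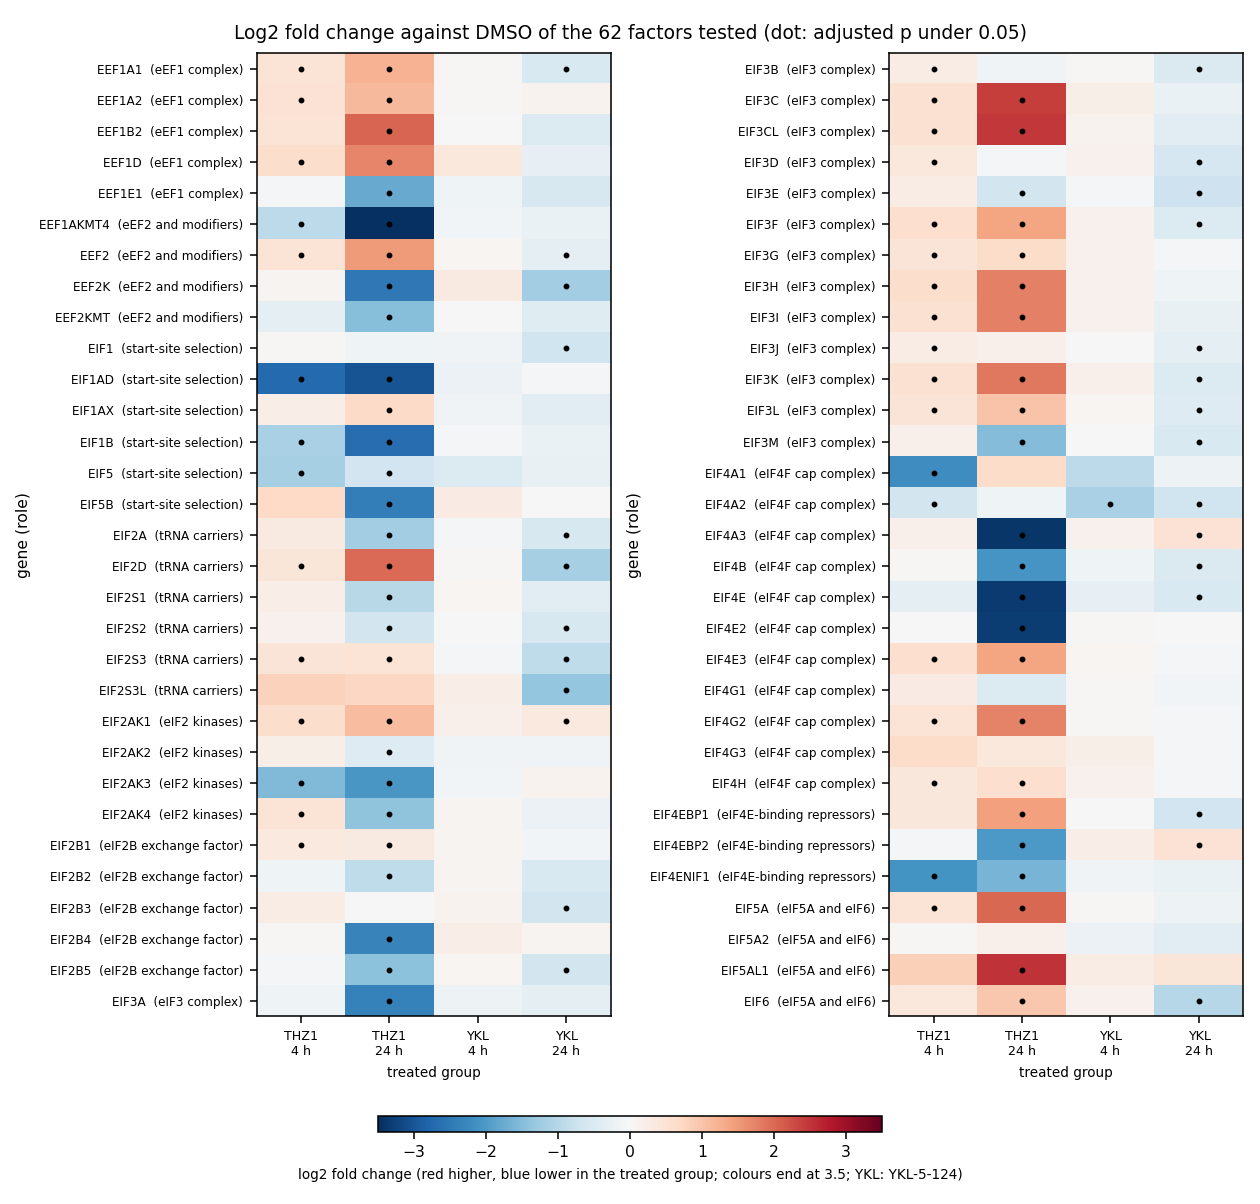
Log2 fold change against DMSO (colour) of the 62 factors tested, one row per gene with its role, in 4 treated groups of 3 libraries each. Dots mark an adjusted p under 0.05. The THZ1 24 h column holds 25 dots on higher and 26 on lower factors, and the YKL-5-124 4 h column holds 1.

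The eIF3 complex, the large scaffold that holds the small ribosomal subunit for initiation, showed the broadest early rise. Of its 14 genes, 11 were higher and 0 lower at THZ1 4 h, 8 were higher and 3 lower at THZ1 24 h, none was called at YKL-5-124 4 h (0 of 14 also at an unadjusted p under 0.05 and by DESeq2), and 0 were higher and 8 lower at YKL-5-124 24 h. The 11 early rises fell to 7 without DMSO replicate 1 or THZ1 4 h replicate 2, and to 3 by library totals. Of all genes tested, 16.9% were higher and 25.1% lower at THZ1 4 h, and 32.3% and 44% at THZ1 24 h. These shares were 0.0553% and 0.463% at YKL-5-124 4 h and 8.92% and 12.7% at YKL-5-124 24 h. EIF3H, a subunit with an MPN fold, had 505, 452 and 495 CPM in the THZ1 4 h libraries and 1090, 1090 and 1060 CPM in the THZ1 24 h libraries, against 335, 277 and 334 CPM in DMSO. All 6 THZ1 libraries lay above the DMSO range, with log2 fold change 0.62 ± 0.096, adjusted p = 0.000107 at 4 h and 1.78 ± 0.098 at 24 h.

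EIF3C, a core subunit that contacts eIF1 and eIF5, had 31.5, 43.2 and 40.2 CPM at THZ1 4 h and 115, 154 and 154 CPM at THZ1 24 h, against 22.5, 30.4 and 26.5 CPM in DMSO. At 24 h it was 5.33-fold higher (log2 fold change 2.41 ± 0.16, adjusted p = 1.96e-09). At 4 h the change was 0.53 ± 0.15, and that call was lost without THZ1 4 h replicate 2 or 3 or DMSO replicate 1 (adjusted p = 0.0517 to 0.0589). Its near copy EIF3CL had 25.5, 27.2 and 31.6 CPM at THZ1 24 h, against 4.31, 5.88 and 5.06 CPM in DMSO (log2 fold change 2.46 ± 0.18, adjusted p = 4.73e-09), and reads of the pair cannot be assigned to one or the other with certainty. EIF3F, the partner of EIF3H with the same fold, had 244, 297 and 317 CPM at THZ1 4 h and 420, 534 and 521 CPM at THZ1 24 h, against 184, 205 and 181 CPM in DMSO. It rose by 0.59 ± 0.14 and 1.37 ± 0.14 at these times, with no overlap between groups. By library totals these values were 0.33 and 0.24, neither called (adjusted p = 0.143 and 0.187).

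The other rises of the complex at THZ1 24 h were EIF3K (1.85), EIF3I (1.76), EIF3L (0.99) and EIF3G (0.65), of which EIF3L and EIF3G turned to -0.14 and -0.48 by library totals. The falls at that time were EIF3A (-2.36), the largest subunit, EIF3M (-1.52) and EIF3E (-0.64). By library totals the complex counted 5 higher and 7 lower genes at THZ1 24 h, so its direction there depended on the scaling. The spread from EIF3A to EIF3CL could not depend on it, since a scaling moves all genes by about the same amount. With the length slope in the fit, EIF3A was at -0.74, EIF3M at -2.62 and EIF3E at -2.18, all called. EIF3E had 585, 457 and 451 CPM at THZ1 24 h, against 901, 559 and 861 CPM in DMSO, and these ranges overlap. Its call at THZ1 24 h was lost without THZ1 24 h replicate 2 or 3 or DMSO replicate 1 or 3 (adjusted p = 0.0555 to 0.0676). In the YKL-5-124 24 h libraries EIF3E had 551, 484 and 356 CPM, below all DMSO libraries (log2 fold change -0.74 ± 0.22, adjusted p = 0.0259). That call was lost without YKL-5-124 24 h replicate 2 or 3 or DMSO replicate 1 or 3 (adjusted p = 0.0607 to 0.105). The 8 lower eIF3 genes at YKL-5-124 24 h, from EIF3E to EIF3J (-0.31), became 3 without DMSO replicate 1 or 3 and 4 without YKL-5-124 24 h replicate 2 or 3.

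**Figure D2:**
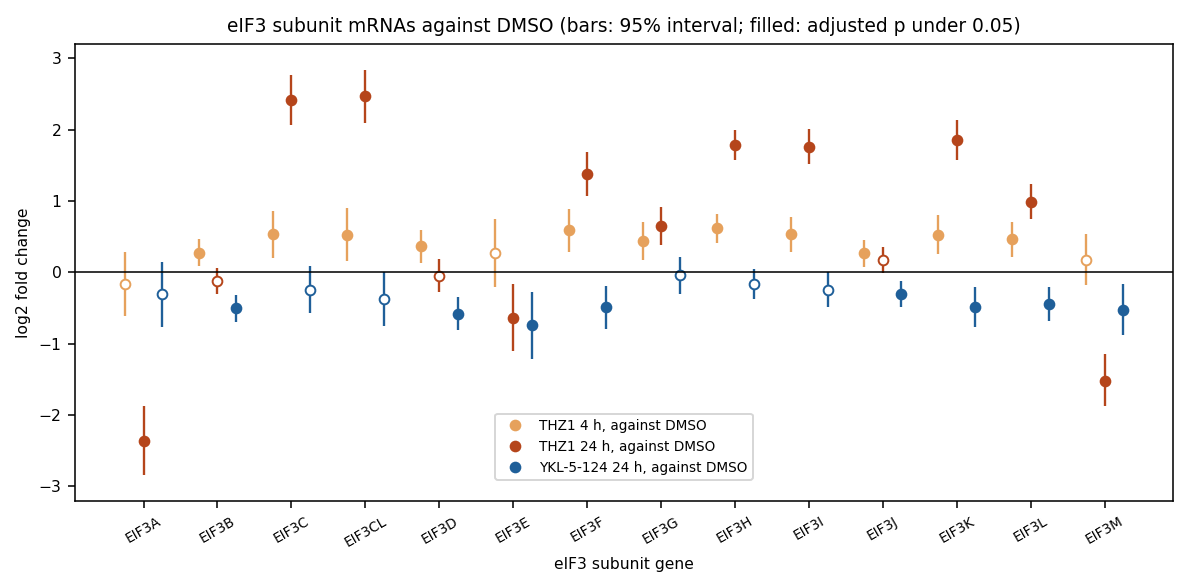
Log2 fold change against DMSO (vertical axis) of the 14 eIF3 genes at THZ1 4 h, THZ1 24 h and YKL-5-124 24 h, with 95% intervals. Filled points have an adjusted p under 0.05. EIF3C, EIF3CL, EIF3H, EIF3I and EIF3K lie highest and EIF3A and EIF3M lowest at THZ1 24 h.

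The list of cap-complex genes, their homologues and helpers held the 3 largest falls at THZ1 24 h among factors with a mean of at least 5 CPM. Of the 11 genes of this list tested, 3 were higher and 4 lower at that time (1 and 7 by library totals), and 4 were not called. Among all genes tested, 32.3% were higher and 44% lower. Of the 3 largest falls, EIF4E alone belongs to eIF4F as defined above. EIF4E, the cap-binding protein, had 11.2, 7.45 and 7.93 CPM in the THZ1 24 h libraries, against 101, 71.9 and 95.7 CPM in DMSO, a 10.1-fold fall (log2 fold change -3.34 ± 0.20, adjusted p = 6.74e-10). Its homologue EIF4E2, a weaker cap binder known mainly as a repressor, had 7.37, 7.96 and 7.93 CPM at THZ1 24 h, against 82.4, 71.3 and 80.7 CPM in DMSO (log2 fold change -3.33 ± 0.13, adjusted p = 9.2e-12). EIF4A3, the helicase paralogue that anchors the exon junction complex, had 14.9, 11.7 and 12.9 CPM at THZ1 24 h, against 152, 125 and 142 CPM in DMSO (log2 fold change -3.41 ± 0.12, adjusted p = 5.7e-12). For each of these 3 genes the THZ1 24 h libraries lay far below every other library of the study.

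At THZ1 4 h none of those 3 mRNAs was called: EIF4E stood at 80.4, 62.3 and 69 CPM, EIF4E2 at 80.5, 74.4 and 79.2 CPM and EIF4A3 at 168, 151 and 155 CPM, and each overlapped the DMSO range. At YKL-5-124 24 h EIF4E was lower, with 69.1, 62.6 and 53.5 CPM (log2 fold change -0.54 ± 0.17, adjusted p = 0.0397), and this call was lost without YKL-5-124 24 h replicate 2 or 3 or DMSO replicate 1 or 3 (adjusted p = 0.0936 to 0.148). EIF4A3 went the other way at YKL-5-124 24 h, with 207, 207 and 184 CPM, above all DMSO libraries (log2 fold change 0.51 ± 0.10, adjusted p = 0.00265). EIF4E2 at YKL-5-124 24 h was at 81.3, 84.2 and 65.1 CPM and was not called (-0.023, 95% interval -0.25 to 0.21).

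EIF4B, which stimulates the eIF4A helicase, had 106, 114 and 111 CPM at THZ1 24 h and 322, 331 and 317 CPM at YKL-5-124 24 h, against 477, 435 and 467 CPM in DMSO. It was lower in both groups, with log2 fold changes of -2.06 ± 0.084 and -0.51 ± 0.08. The related EIF4H was higher at THZ1 24 h (0.58), which turned to -0.55 by library totals. EIF4G2, a scaffold that lacks the eIF4E-binding part and serves other modes of initiation, was the highest riser of the list at THZ1 24 h (1.73). The cap-binding family member EIF4E3 had 23.7, 17.2 and 22.3 CPM at THZ1 4 h and 34.9, 38.9 and 36.2 CPM at THZ1 24 h, against 14.5, 12.2 and 15.3 CPM in DMSO. It rose by 0.59 ± 0.15 at 4 h and 1.39 ± 0.15 at 24 h, with all 6 THZ1 libraries above DMSO, while EIF4E and EIF4E2 fell at 24 h. By library totals the EIF4E3 values were 0.33 and 0.26, neither called (adjusted p = 0.066 and 0.0789).

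EIF4A2, a helicase of the cap complex, was the one factor called at YKL-5-124 4 h. It had 256, 198 and 240 CPM at THZ1 4 h, 332, 337 and 317 CPM at THZ1 24 h, 199, 155 and 144 CPM at YKL-5-124 4 h and 246, 237 and 187 CPM at YKL-5-124 24 h, against 386, 347 and 359 CPM in DMSO. Every treated library was below the DMSO range. The log2 fold change was -1.13 ± 0.14 (adjusted p = 0.00174) at YKL-5-124 4 h, -0.65 ± 0.14 at THZ1 4 h, -0.70 ± 0.14 at YKL-5-124 24 h and -0.15 ± 0.14 (not called) at THZ1 24 h. Fitted with the DMSO and YKL-5-124 4 h libraries alone, the YKL-5-124 4 h change had an adjusted p of 0.0511. Its paralogue EIF4A1, usually the more abundant helicase, had 1.09, 0.583 and 0.233 CPM at THZ1 4 h, against 3.77, 2.21 and 2.78 CPM in DMSO (log2 fold change -2.19 ± 0.49, adjusted p = 0.00234), and readthrough transcripts cover most of its span, so this low level is uncertain.

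The eIF4E-binding repressors EIF4EBP1 and EIF4EBP2, which block eIF4E until mTORC1 phosphorylates them, changed in opposite directions, and the direction of each differed between the compounds at 24 h. EIF4EBP1 had 693, 510 and 508 CPM at THZ1 24 h and 138, 152 and 107 CPM at YKL-5-124 24 h, against 238, 163 and 228 CPM in DMSO. It was higher under THZ1 (log2 fold change 1.44 ± 0.19, adjusted p = 4.56e-06) and lower under YKL-5-124 (log2 fold change -0.66 ± 0.19, adjusted p = 0.0205). The rise was no longer called by library totals (0.32) or with the length slope in the fit (0.07), and the fall was lost without YKL-5-124 24 h replicate 3 or DMSO replicate 1 or 3 (adjusted p = 0.0777 to 0.0865). EIF4EBP2 had 20.8, 27.3 and 24.1 CPM at THZ1 24 h and 130, 133 and 152 CPM at YKL-5-124 24 h, against 102, 97.3 and 94 CPM in DMSO. It was lower under THZ1 (log2 fold change -2.02 ± 0.15, adjusted p = 5.34e-09) and higher under YKL-5-124 (log2 fold change 0.50 ± 0.14, adjusted p = 0.0175). The call under YKL-5-124 was lost without YKL-5-124 24 h replicate 3 or DMSO replicate 3 (adjusted p = 0.0683 to 0.0687). At 4 h neither was called under either compound.

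EIF4ENIF1, which carries eIF4E to the nucleus and to processing bodies, fell early. It had 1.66, 2.12 and 2.47 CPM at THZ1 4 h and 2.9, 2.55 and 3.23 CPM at THZ1 24 h, against 9.37, 9.56 and 7.75 CPM in DMSO (log2 fold change -2.09 ± 0.18, adjusted p = 2.63e-07 at 4 h and -1.62 ± 0.19 at 24 h). The YKL-5-124 libraries, at 8.75, 8.01 and 7.93 CPM at 4 h and 7.35, 7.12 and 8.25 CPM at 24 h, overlapped DMSO.

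**Figure D3:**
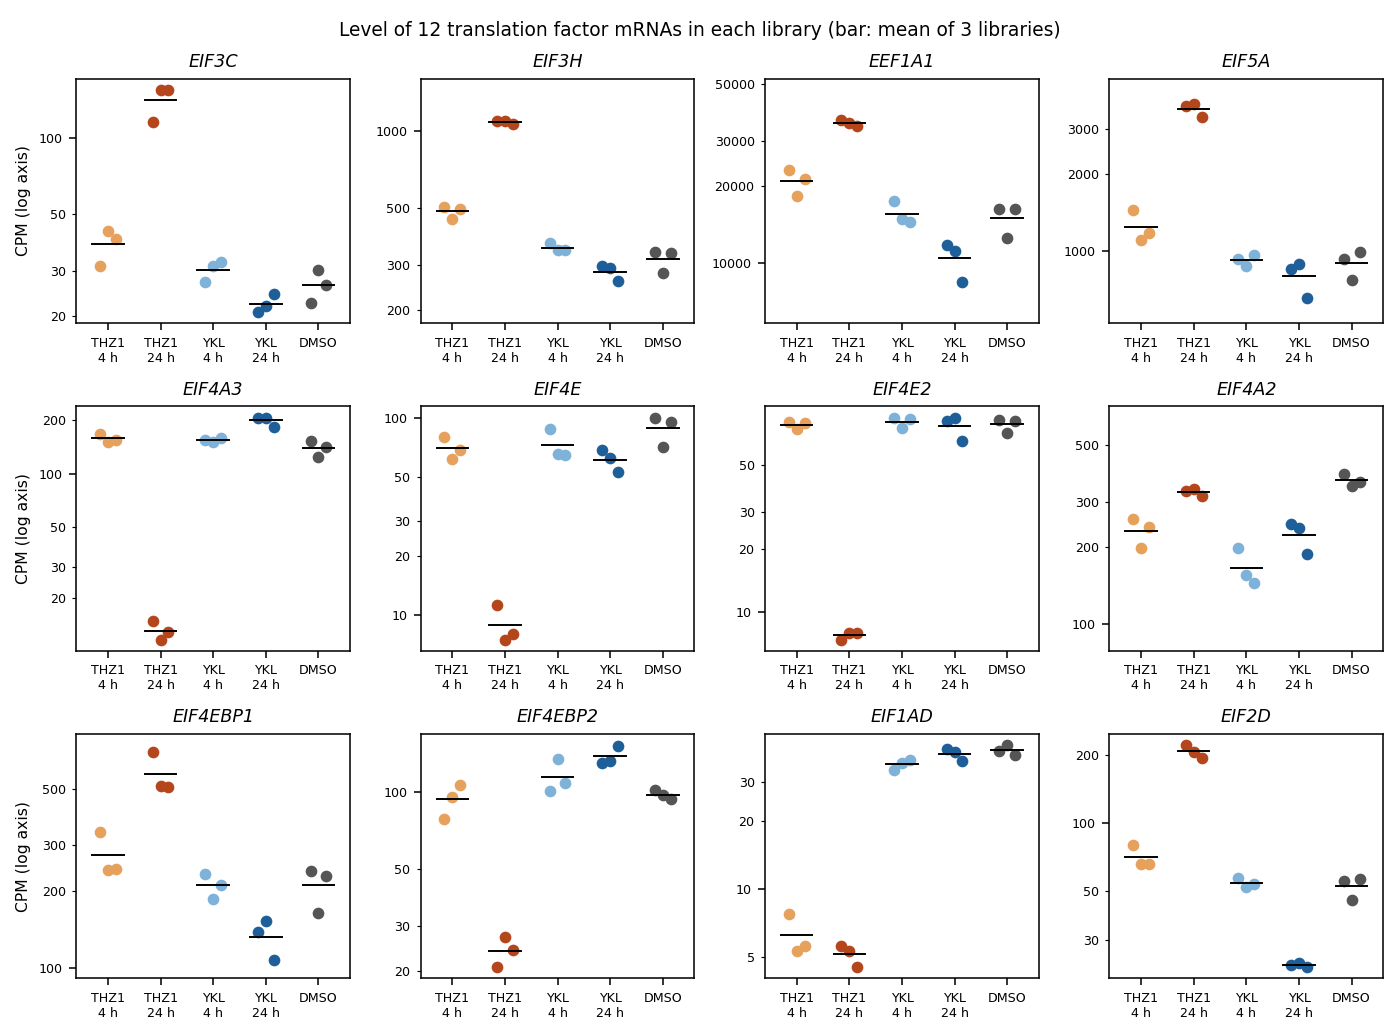
Level of 12 factors (CPM, log axis) in each of the 15 libraries by group, with a bar at the mean of 3. EIF4A3, EIF4E, EIF4E2 and EIF4EBP2 are lowest at THZ1 24 h, EIF3C, EIF3H, EEF1A1, EIF5A, EIF4EBP1 and EIF2D are highest there, and EIF1AD is already low at THZ1 4 h.

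Among the carriers of initiator tRNA, EIF2D, a factor of non-canonical initiation and of ribosome recycling, had the largest rise under THZ1 over YKL-5-124 at 24 h of the 62 factors. It had 79.4, 65.8 and 65.6 CPM at THZ1 4 h, 221, 207 and 194 CPM at THZ1 24 h, 57.1, 51.8 and 53.7 CPM at YKL-5-124 4 h and 23.4, 23.9 and 22.8 CPM at YKL-5-124 24 h, against 55.2, 45.6 and 56.1 CPM in DMSO. The 24 h libraries of the compounds lay on opposite sides of all others. It rose 3.97-fold at THZ1 24 h (log2 fold change 1.99 ± 0.11, adjusted p = 3.28e-10) and fell 2.24-fold at YKL-5-124 24 h (log2 fold change -1.16 ± 0.11, adjusted p = 8.38e-06). EIF2S3, the gamma subunit of eIF2 that binds GTP and the tRNA, had 718, 977 and 960 CPM at THZ1 24 h and 370, 354 and 313 CPM at YKL-5-124 24 h, against 679, 568 and 677 CPM in DMSO. It was lower under YKL-5-124 (log2 fold change -0.89 ± 0.13, adjusted p = 0.000195), and its rise under THZ1 (0.47) turned to -0.66 by library totals. The alpha and beta subunits EIF2S1 and EIF2S2 were lower at THZ1 24 h (-0.97 and -0.64), and EIF2S2 was not called with relative log expression factors in place of TMM (-0.32). EIF2A changed by -1.22 and -0.56 at 24 h of THZ1 and YKL-5-124, both called, and SERP1 lies over its whole span on the other strand. The retrogene EIF2S3L, near the limit of detection at 0.175, 0.167 and 0.316 CPM at YKL-5-124 24 h and 0.577, 0.696 and 0.421 CPM in DMSO, is a copy of EIF2S3 and had a log2 fold change of -1.35, a call lost without YKL-5-124 24 h replicate 1 or 2 or DMSO replicate 1 or 2 (adjusted p = 0.0793 to 0.118).

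The kinases that phosphorylate eIF2 did not move together. EIF2AK1, the heme-regulated kinase, had 259, 303 and 314 CPM at THZ1 4 h, 356, 433 and 432 CPM at THZ1 24 h and 238, 242 and 246 CPM at YKL-5-124 24 h, against 189, 202 and 186 CPM in DMSO. Its log2 fold changes were 0.60 ± 0.10, 1.08 ± 0.10 and 0.33 ± 0.10 in these groups, all called. By library totals the THZ1 24 h value became -0.048, and the YKL-5-124 24 h call was lost without YKL-5-124 24 h replicate 1, 2 or 3 or DMSO replicate 1 or 3 (adjusted p = 0.0668 to 0.109). EIF2AK3, the kinase of endoplasmic reticulum stress, had 3.13, 4.93 and 3.58 CPM at THZ1 4 h and 1.69, 2.86 and 3.65 CPM at THZ1 24 h, against 10.9, 12.8 and 10 CPM in DMSO (log2 fold change -1.54 ± 0.24, adjusted p = 9.97e-05 at 4 h). EIF2AK4, the amino acid sensor kinase, was higher at THZ1 4 h (0.48) and lower at THZ1 24 h (-1.42), and it was the one factor called in both directions under THZ1 by TMM. By library totals the EIF2AK4 rise was 0.22 and not called (adjusted p = 0.285), and the fall was -2.55 and called. EIF2AK2, the kinase that responds to double-stranded RNA, was lower at THZ1 24 h (-0.46) and not called with relative log expression factors (-0.13).

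The exchange factor eIF2B, which recharges eIF2 with GTP, had 3 of 5 genes lower and 1 higher at THZ1 24 h, near the share of all genes called lower there. EIF2B4 (-2.34), EIF2B5 (-1.45) and EIF2B2 (-0.90) fell, EIF2B3 (-0.001) was not called, and EIF2B1 rose by 0.32, which became -0.81 by library totals and -0.41 with the length slope, and was not called without DMSO replicate 2 (0.22, adjusted p = 0.132). At YKL-5-124 24 h EIF2B5 (-0.65) and EIF2B3 (-0.64) were lower. The annotated span of EIF2B5 takes in many other genes, EIF4G1 and EEF1AKMT4 among them.

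The list drawn up for start-site selection held 3 of the 6 falls of at least 2-fold among the 62 factors at THZ1 4 h. Of all 14461 genes tested, 2458 fell that much. EIF1AD is on this list by its name, and a role in that step was not tested. EIF1AD, named for its eIF1A-like domain, had 7.78, 5.3 and 5.58 CPM at THZ1 4 h and 5.56, 5.31 and 4.49 CPM at THZ1 24 h, against 40.9, 43.6 and 39.6 CPM in DMSO. It was 6.64-fold lower after 4 h (log2 fold change -2.73 ± 0.14, adjusted p = 2.46e-09), the largest fall of the 62 factors then, and 8.1-fold lower after 24 h. In YKL-5-124 cells EIF1AD had 33.8, 36.5 and 37.5 CPM at 4 h and 41.9, 40.5 and 37.2 CPM at 24 h and was not called. EIF5, which triggers GTP hydrolysis by eIF2 at the start codon, had 219, 194 and 194 CPM at THZ1 4 h and 318, 256 and 266 CPM at THZ1 24 h, against 482, 416 and 451 CPM in DMSO. The log2 fold change was -1.15 ± 0.12 at 4 h (adjusted p = 1.32e-06) and -0.68 ± 0.12 at 24 h, and the 24 h libraries were higher than the 4 h libraries by 0.47 ± 0.12 (adjusted p = 0.00206). EIF5 was not called at YKL-5-124 4 h, where its libraries at 372, 305 and 284 CPM lay below the DMSO range (-0.49, adjusted p = 0.0838).

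EIF1B, a paralogue of the start-codon gatekeeper EIF1, had 21.4, 19.5 and 23.2 CPM at THZ1 4 h and 6.76, 7.45 and 7.72 CPM at THZ1 24 h, against 48.5, 43 and 48.7 CPM in DMSO (log2 fold change -1.13 ± 0.10, adjusted p = 4.54e-07 at 4 h and -2.67 ± 0.12 at 24 h). EIF1 itself had 305, 274 and 289 CPM at THZ1 4 h and 295, 237 and 223 CPM at THZ1 24 h, against 275, 255 and 306 CPM in DMSO, and was not called at either time. EIF1 was lower at YKL-5-124 24 h, with 184, 185 and 145 CPM (log2 fold change -0.70 ± 0.12, adjusted p = 0.000985), and EIF1B was not called (-0.23). EIF5B, which joins the large subunit, had 12.1, 15.2 and 23.5 CPM at THZ1 24 h, against 59.8, 146 and 65.3 CPM in DMSO (log2 fold change -2.42 ± 0.50, adjusted p = 0.00043), with DMSO replicate 2 far above the other DMSO libraries. With the length slope in the fit EIF5B turned to 1.44. EIF1AX was higher at THZ1 24 h (0.67), and both by library totals (-0.45) and with the length slope (-0.43) its sign turned.

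EIF5A, the hypusine-bearing factor that helps ribosomes through difficult peptide bonds, had 1450, 1110 and 1180 CPM at THZ1 4 h and 3700, 3760 and 3330 CPM at THZ1 24 h, against 931, 771 and 994 CPM in DMSO. It was 4-fold higher at 24 h (log2 fold change 2.001 ± 0.14, adjusted p = 3.75e-09), and its smaller rise at 4 h (0.47) was lost without THZ1 4 h replicate 1 or DMSO replicate 2 (adjusted p = 0.0513 to 0.0596). The paralogue EIF5A2 had 47.8, 58.8 and 56.9 CPM at THZ1 24 h, against 51.4, 41 and 51.7 CPM in DMSO, and was not called (0.18, 95% interval -0.12 to 0.48). EIF5AL1 was higher at THZ1 24 h (2.52) at a mean of 6.51 ± 1.82 CPM (SD, n = 3), and its reads cannot be told apart from those of EIF5A with certainty. With the length slope in the fit the THZ1 24 h change was 1.12 for EIF5A and 0.29 for EIF5AL1, the second not called (adjusted p = 0.689). EIF6, which keeps the large ribosomal subunit from joining too early, had 271, 242 and 218 CPM at THZ1 24 h and 66.1, 71.3 and 51.6 CPM at YKL-5-124 24 h, against 125, 109 and 143 CPM in DMSO. It was lower under YKL-5-124 (log2 fold change -0.997 ± 0.15, adjusted p = 0.000283), and its rise under THZ1 (0.95) turned to -0.17 by library totals and to -0.039 with the length slope.

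Elongation factors were higher at THZ1 24 h by TMM, and the enzymes that modify them were lower. Of the 5 genes of the eEF1 list, 4 were higher and 1 lower (EEF1E1) at THZ1 24 h, and 2 were higher and 1 lower by library totals. By TMM, 32.3% of all genes tested were higher and 44% lower at THZ1 24 h. EEF1A1, the most abundant factor mRNA, had 23100, 18200 and 21200 CPM at THZ1 4 h, 36000, 35100 and 34400 CPM at THZ1 24 h and 11800, 11100 and 8450 CPM at YKL-5-124 24 h, against 16200, 12500 and 16300 CPM in DMSO. It rose by 0.47 ± 0.15 and 1.23 ± 0.15 at these THZ1 times and had a log2 fold change of -0.52 ± 0.15 under YKL-5-124 (adjusted p = 0.0203). The early rise was lost without THZ1 4 h replicate 1 or DMSO replicate 2 (adjusted p = 0.0656 to 0.0723), the fall was lost without YKL-5-124 24 h replicate 3 or DMSO replicate 1 or 3 (adjusted p = 0.077 to 0.0837), and the THZ1 24 h change was 0.10 by library totals and 0.32 with the length slope, called in neither (adjusted p = 0.399 and 0.0891). The paralogue EEF1A2, known from muscle and neurons, had 48.3, 50.1 and 44 CPM at THZ1 4 h and 73.9, 72.2 and 73.5 CPM at THZ1 24 h, against 30.4, 33.4 and 36.5 CPM in DMSO (1.13 ± 0.10 at 24 h, and 0 by library totals).

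EEF1B2, an exchange factor of eEF1A, had 3220, 3120 and 2890 CPM at THZ1 24 h, against 854, 564 and 851 CPM in DMSO (log2 fold change 2.02 ± 0.20, adjusted p = 1.92e-07). EEF1D, another exchange subunit, had 86.4, 86.8 and 82.5 CPM at THZ1 4 h and 154, 218 and 173 CPM at THZ1 24 h, against 44.9, 73.4 and 48.7 CPM in DMSO. Its rise at 24 h was 1.71 ± 0.23, and the one at 4 h (log2 fold change 0.61 ± 0.22, adjusted p = 0.038) was lost without THZ1 4 h replicate 1, 2 or 3 or DMSO replicate 1 or 3 (adjusted p = 0.0729 to 0.139). EEF2, the translocase, had 2350, 2580 and 2240 CPM at THZ1 4 h, 4760, 4760 and 4850 CPM at THZ1 24 h and 1410, 1460 and 1270 CPM at YKL-5-124 24 h, against 1570, 1830 and 1740 CPM in DMSO. It rose by 0.48 ± 0.10 and 1.48 ± 0.10 under THZ1 at these times and had a log2 fold change of -0.31 ± 0.10 under YKL-5-124, a call lost without YKL-5-124 24 h replicate 1, 2 or 3 or DMSO replicate 2 or 3 (adjusted p = 0.0623 to 0.141).

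EEF2K, the kinase that switches eEF2 off, had 1.21, 2.55 and 2.92 CPM at THZ1 24 h and 4.69, 5.54 and 6.28 CPM at YKL-5-124 24 h, against 6.66, 19.9 and 11.5 CPM in DMSO. It was lower in both (-2.49 ± 0.46 and -1.21 ± 0.39), but with the length slope in the fit the THZ1 24 h change was 0.19, and the YKL-5-124 call was lost without YKL-5-124 24 h replicate 1, 2 or 3 or DMSO replicate 2 or 3 (adjusted p = 0.0661 to 0.174). The methyltransferases EEF1AKMT4, which modifies eEF1A, and EEF2KMT, which modifies eEF2, were lower at THZ1 24 h. EEF1AKMT4 had 4.75, 2.92 and 3.35 CPM at THZ1 4 h and 0.845, 0.102 and 0.209 CPM at THZ1 24 h, against 8.04, 4.76 and 7.88 CPM in DMSO (-4.21 ± 0.45 at 24 h). This was the largest fitted fall of all 62 factors, at a level too low for the 5 CPM mark and inside the span of EIF2B5. EEF2KMT changed by -1.49 at THZ1 24 h, and EEF1E1, a scaffold protein of the tRNA synthetase complex, by -1.75.

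The first bases of the transcripts are shown because they define the TOP class. On a list of factors known as TOP mRNAs (EEF1A1, EEF1B2, EEF1D, EEF2, EIF3E, EIF3F, EIF3H and EIF4B tested), 5 were higher and 0 lower at THZ1 4 h, 6 higher and 2 lower at THZ1 24 h, and 0 higher and 5 lower at YKL-5-124 24 h. The 5 early rises became 1 (EIF3H) by library totals and 3 without THZ1 4 h replicate 1. The 5 later falls became 2 without DMSO replicate 3, YKL-5-124 24 h replicate 2 or YKL-5-124 24 h replicate 3. Of all genes tested, 16.9% were higher and 25.1% lower at THZ1 4 h, and 32.3% and 44% at THZ1 24 h. At YKL-5-124 24 h these shares were 8.92% and 12.7%. The RefSeq table of gene starts (build GRCh38.p14) matched 49 of the 62 factors by symbol. EEF1D, EIF3E and EIF3H of the TOP list were not matched, so a split by start does not cover that whole list. Each start was searched, on the sense strand alone, for a C at its first base followed by C or T up to a run of at least 4. Of the 49 factors, 12 have such a start (24.5%), against 6.8% of the 27305 genes in that table. Those 27305 include genes that were not tested here. Among tested genes that are neither factors nor ribosomal protein genes, 824 have such a start and 8867 do not. The lines below give 30 bases each, 10 before the start and 20 from it, 5′ to 3′, with the run in capitals, for factors that the results above turn on.
EEF1A1: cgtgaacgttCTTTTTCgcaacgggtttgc
EEF1B2: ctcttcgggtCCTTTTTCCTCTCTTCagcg
EEF2: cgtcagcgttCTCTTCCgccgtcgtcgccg
EIF3F: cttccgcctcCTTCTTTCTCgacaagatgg
EIF4B: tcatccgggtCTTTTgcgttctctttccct
EIF2D: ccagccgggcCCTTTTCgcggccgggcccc
EIF3K: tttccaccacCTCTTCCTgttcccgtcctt
EIF4A2: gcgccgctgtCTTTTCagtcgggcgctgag
EIF4A3: cggcagcggcacagcgaggtcggcagcggc
EIF4E: tggagcggttgtgcgatcagatcgatctaa
EIF1AD: cagcgccggaagtacggttttcggagggat
EIF1B: cattttgtgcgagaagccgcagcgccgcct
The first 8 carry the run and the last 4 do not. The windows are at chr6:73521013-73521042 for EEF1A1 (minus strand), chr2:206159885-206159914 for EEF1B2 (plus strand, the one of its 2 listed starts that holds the run), chr19:3985444-3985473 for EEF2 (minus strand), chr11:7987327-7987356 for EIF3F (plus strand), chr12:53006446-53006475 for EIF4B (plus strand) and chr1:206612446-206612475 for EIF2D (minus strand). Those of EIF3K (chr19:38619178-38619207) and EIF4A2 (chr3:186783567-186783596) are on the plus strand. Among the factors without the run, EIF4A3 (chr17:80147109-80147138), EIF4E (chr4:98929114-98929143) and EIF1AD (chr11:66002138-66002167) are on the minus strand and EIF1B (chr3:40309697-40309726) is on the plus strand. Each window spans the first transcribed base of its gene as RefSeq lists it, in the promoter and first exon.

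Of the 12 factors with a pyrimidine start, 11 were lower and 0 higher at YKL-5-124 24 h, while of the 37 others 8 were lower and 2 higher. Their median log2 changes were -0.52 and -0.23. The 1 of the 12 that was not called, EEF1B2, changed by -0.47. Of the TOP factors without a matched start, EIF3E was called lower at YKL-5-124 24 h, and EEF1D and EIF3H were not called. Leaving out DMSO replicate 1, DMSO replicate 3 or YKL-5-124 24 h replicate 3 lowered the 11 to 7, and the 8 of the others to 5, 4 and 4. By library totals 8 of the 12 and 5 of the 37 were lower, and in a fit of these 2 groups alone 6 and 5. At THZ1 24 h the 12 split into 7 higher (EEF1A1, EEF1B2, EEF2, EIF2D, EIF2S3, EIF3F and EIF3K) and 3 lower (EIF2A, EIF3M and EIF4B), with a median of 0.85, and the 37 others into 10 higher and 19 lower, with a median of -0.47. By library totals these counts were 4 higher and 6 lower, and 5 higher and 28 lower. Outside the factors, 28 of 48 ribosomal protein genes with such a start were lower at YKL-5-124 24 h and 47 of 48 were higher at THZ1 24 h. Of all 82 ribosomal protein genes tested, these 48 among them, 45 were lower and 79 higher in these comparisons. Whether these changes went with the start was not tested. Of 824 remaining genes with such a start, 160 were lower at YKL-5-124 24 h, against 1157 of 8867 remaining genes without one. At THZ1 24 h, 280 of the 824 were higher and 370 lower, against 2618 and 4386 of the 8867. More genes were thus lower than higher at THZ1 24 h in both of these sets. The run was looked for with the values known, so these counts are a description, and a match is no measure of translation.

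**Figure D4:**
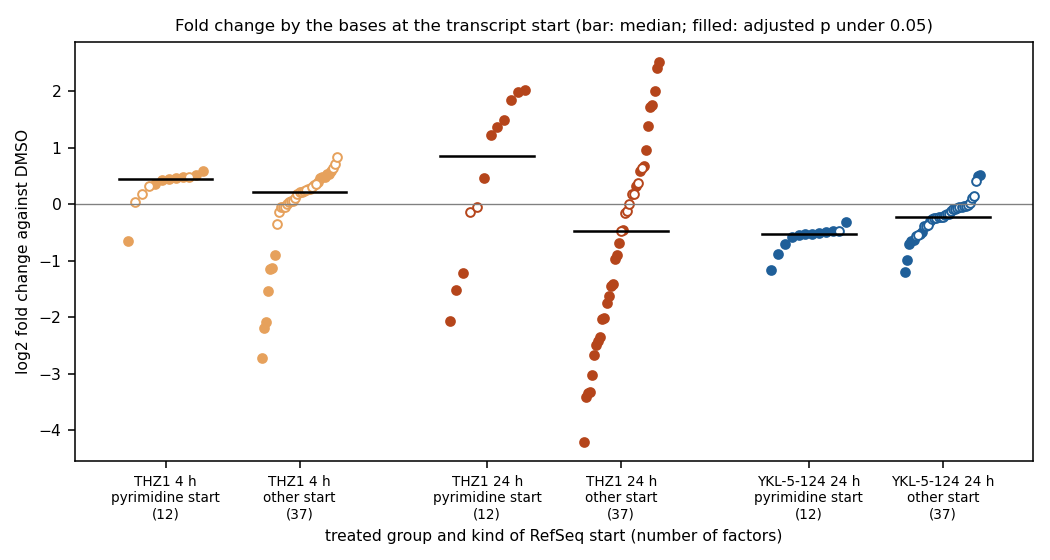
Log2 fold change against DMSO (vertical axis) of the 49 factors with a RefSeq start, split by whether the start opens with a C and at least 3 more pyrimidines (12) or not (37), at THZ1 4 h, THZ1 24 h and YKL-5-124 24 h. Bars are medians and filled points have an adjusted p under 0.05. At YKL-5-124 24 h the 12 lie between -1.16 and -0.31.

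Set side by side at the same dose and time, the compounds differed in 23 factors at 4 h and in 56 at 24 h. At 4 h, 18 factors were higher and 5 lower under THZ1 than under YKL-5-124, where 11.4% and 21.9% of all genes were. The 18 became 9 without YKL-5-124 4 h replicate 2 and 11 without replicate 3, and the 5 became 8 without THZ1 4 h replicate 1. The largest differences at 4 h among factors whose libraries did not overlap were EIF4E3 (0.53 ± 0.15), EIF2S3 (0.48 ± 0.12) and EIF3H (0.47 ± 0.095) on the higher side, and EIF1AD (-2.53 ± 0.14), EIF4ENIF1 (-1.98 ± 0.18) and EIF2AK3 (-1.44 ± 0.24) on the lower. EIF4A2, low under both compounds at 4 h, was higher under THZ1 than under YKL-5-124 by 0.48 ± 0.14 (adjusted p = 0.0136), though the 2 sets of libraries overlap and the call was lost without THZ1 4 h replicate 1 or YKL-5-124 4 h replicate 2 or 3 (adjusted p = 0.0526 to 0.0688). The other 39 factors did not pass the threshold between compounds at 4 h. Among these EIF4E differed by -0.052 (95% interval -0.42 to 0.32) and EIF4EBP2 by -0.29 (-0.58 to 0).

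At 24 h, 33 factors were higher and 23 lower under THZ1 than under YKL-5-124, with 31.8% and 44.1% of all genes called in these directions. EIF2D (3.15 ± 0.12), EIF3CL (2.84 ± 0.18) and EIF3C (2.66 ± 0.16) were highest, and among factors with a mean of at least 5 CPM EIF4A3 (-3.92 ± 0.12), EIF4E2 (-3.31 ± 0.13) and EIF1AD (-2.96 ± 0.15) were lowest. EEF1AKMT4, below that level, differed by -3.99. EIF4EBP1 differed by 2.10 ± 0.19 and EIF4EBP2 by -2.52 ± 0.15. Against DMSO at 24 h, 9 factors were called higher under THZ1 and lower under YKL-5-124 (EEF1A1, EEF2, EIF2D, EIF2S3, EIF3F, EIF3K, EIF3L, EIF4EBP1 and EIF6), 2 the reverse (EIF4A3 and EIF4EBP2), 8 lower under both and 1 higher under both (EIF2AK1). Both sides of that cross-count use the same DMSO libraries.

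Between times, more factors changed under THZ1 than under YKL-5-124. Under THZ1, 25 factors were higher and 25 lower at 24 h than at 4 h, with 31.4% and 35.7% of all genes called, and the largest among factors with a mean of at least 5 CPM were EIF3CL (1.94), EIF3C (1.88) and EIF2D (1.56) upward and EIF4A3 (-3.58), EIF4E2 (-3.33) and EIF5B (-3.13, but 0.67 with the length slope in the fit) downward. Below that level EIF4A1 was higher (2.82) and EEF1AKMT4 lower (-3.31). Under YKL-5-124, 2 were higher and 26 lower at 24 h than at 4 h, with 9.22% and 11.9% of all genes called. The 26 became 14 without YKL-5-124 24 h replicate 3, and the 2 became 0 without YKL-5-124 4 h replicate 2, YKL-5-124 24 h replicate 1 or YKL-5-124 24 h replicate 2. EEF2K (-1.52), EIF2D (-1.21) and EIF6 (-1.15) fell the most among factors with a mean of at least 5 CPM, and the scarce EIF2S3L changed by -1.59. The 2 higher factors were EIF4A2 (0.43, with overlapping libraries) and EIF4A3 (0.37). The change with time differed between the compounds for 42 factors by the interaction term, 24 with the larger value under THZ1 and 18 with the smaller, where 26.6% and 31% of all genes were called.

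Paralogues of a pair were called differently in several cases. At THZ1 24 h the pairs EIF5A and EIF5A2 (2.001 and 0.18) and EIF1B and EIF1 (-2.67 and -0.15) each held 1 called gene, while EIF4E and EIF4E2 (-3.34 and -3.33) were both called lower. The difference within a pair was not tested. EIF4G1, the main scaffold of the cap complex, had 294, 351 and 408 CPM at THZ1 24 h, against 395, 636 and 430 CPM in DMSO, and EIF4G3 had 62.9, 78.5 and 81.3 CPM, against 47.9, 79.4 and 44.4 CPM. Neither was called in any comparison with DMSO, and in both genes DMSO replicate 2 was the highest of its group. Per kilobase of annotated exons, DMSO cells held 2527 CPM of EEF1A1 and 16.7 of EEF1A2, 319 of EIF5A and 8.59 of EIF5A2, 77 of EIF1 and 24.4 of EIF1B, and 195 of EIF4EBP1 and 13.5 of EIF4EBP2.

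Other genes of translation outside the named families moved in both directions as well, as did all genes tested. Of all genes, 16.9% were higher and 25.1% lower at THZ1 4 h, and 32.3% and 44% at THZ1 24 h. At YKL-5-124 24 h these shares were 8.92% and 12.7%. Of 13 genes of termination, recycling and poly(A) binding, 5 were higher and 2 lower at THZ1 4 h, 4 higher and 8 lower at THZ1 24 h, and 1 higher and 2 lower at YKL-5-124 24 h. GSPT2 (-3.32 ± 0.29), a release factor GTPase, and PELO (-2.65 ± 0.19), a rescue factor for stalled ribosomes, fell the most at 4 h, and PABPC1, the poly(A)-binding protein, rose most at THZ1 24 h (2.25 ± 0.30). Of 9 mitochondrial factors, 3 were higher and 0 lower at THZ1 4 h, and 4 were higher and 4 lower at THZ1 24 h, led by TSFM (-2.25 ± 0.22) and TUFM (2.01 ± 0.13), the mitochondrial elongation factor pair. Of 12 genes tested for the eIF2 phosphatase, hypusination and mTORC1 control, 3 were higher and 4 lower at THZ1 4 h and 2 higher and 9 lower at THZ1 24 h. PPP1R15A (-2.57 ± 0.12) and PPP1R15B (-2.54 ± 0.17), which direct the phosphatase to eIF2, were the largest falls at THZ1 4 h, and MKNK2, a kinase of eIF4E, was the largest rise at YKL-5-124 24 h (1.48 ± 0.14).

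As a whole the 68 factors took 3.91% ± 0.178 of all counts at THZ1 4 h, 3.495% ± 0.0200 at THZ1 24 h, 3.59% ± 0.147 at YKL-5-124 4 h and 2.96% ± 0.208 at YKL-5-124 24 h, against 3.55% ± 0.169 in DMSO (SD, n = 3 each). The libraries of THZ1 4 h lay above and those of YKL-5-124 24 h below the DMSO range, which gives the smallest two-sided exact permutation p that 3 against 3 allows (0.1). The other 2 groups overlapped DMSO (exact p = 0.6 at THZ1 24 h and 0.9 at YKL-5-124 4 h). EEF1A1 alone took 1.91% ± 0.0114 at THZ1 24 h and 1.78% ± 0.166 in DMSO, and the remaining factors took 1.58% ± 0.0171 and 1.77% ± 0.0175. The EIF genes alone took 1.14% ± 0.0121 at THZ1 24 h, 1.32% ± 0.00305 at YKL-5-124 24 h and 1.46% ± 0.0120 in DMSO, with no overlap of either treated group with DMSO (exact p = 0.1 each).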

How the data were processed

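Total RNA of PATU-8988T cells was sequenced in 15 libraries. The authors deposited raw read counts per Ensembl gene (build GRCh38), and the submitters' processing notes name STAR 2.6.1d, featureCounts 1.5.0-p3 and DESeq2 1.24.0; the sources used here do not give strand or multi-mapping settings. Counts were tested with edgeR 4.0.16 (quasi-likelihood, R 4.3.3) over all 15 libraries, with TMM scaling, filterByExpr (minimum count 10, minimum total 15) and Benjamini-Hochberg adjustment over 14461 genes. Comparisons were each treated group with DMSO, THZ1 with YKL-5-124 at each time, 24 h with 4 h for each compound, and the compound by time interaction. CPM are counts over the TMM-scaled totals of the genes tested; a value after ± is the SE for a log2 fold change and the SD elsewhere. Total counts of 15567057 to 22869590 set the precision, and the errors cover the spread between libraries. Named with all libraries are, in each comparison with DMSO, the 5 largest rises and falls among called factors with a mean of at least 5 CPM and no overlap with DMSO, the 3 largest on each side in other comparisons, pairs of paralogues and TOP factors; other factors were named by role. The members and lists were chosen with earlier results of these data known. Groups and replicate numbers were read from the sample titles. Start sequences are RefSeq's (GRCh38.p14, 49 of 62 factors matched). The fit was tested on simulated counts of THZ1 4 h against DMSO. It recovered 55% of 100 changes of 2-fold and 17% of 100 of 1.5-fold, with 4 false calls among 76. A factor that was not called may thus still have changed. Alternatives were other scalings, no filter, DESeq2 1.42.0, fits of fewer groups, a replicate block, a length covariate and leaving out each library.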

Additional observations from a re-analysis of the deposited data

Results flagged for a closer look

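The change from 4 h to 24 h differed between the compounds, by edgeR's interaction term, for 24 factors with a larger and 18 with a smaller value under THZ1 than under YKL-5-124. The differences in log2 change were 2.77 for EIF2D, 2.43 for EIF3CL and 2.32 for EIF3C on the higher side. On the lower side they were -3.95 for EIF4A3, -3.26 for EIF4E2 and -2.85 for EIF5B, which turned to 0.83 with the length slope of each library in the fit (adjusted p = 0.00907). The eIF4E-binding repressors differed in opposite directions, EIF4EBP1 by 1.71 and EIF4EBP2 by -2.23. All of these use the THZ1 24 h libraries, which stood apart in composition. By library totals and with the length slope, the value of EIF2D was 1.74 and 2.21 and that of EIF4A3 was -4.98 and -4.39.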

How the results depend on the processing

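Counts of factors are given as higher and lower. Scaling by library totals or by ribosomal protein counts moved all genes too, as given above. By library totals they were 5 and 13 at THZ1 4 h, 12 and 39 at THZ1 24 h, 0 and 2 at YKL-5-124 4 h, 1 and 13 for THZ1 against YKL-5-124 at 4 h, 16 and 40 for the compounds at 24 h, 11 and 42 for THZ1 24 h against 4 h, 4 and 17 for YKL-5-124 24 h against 4 h, and 11 and 38 for the interaction. Against the summed ribosomal protein counts they were 0 and 20 at THZ1 4 h, 0 and 55 at THZ1 24 h, 16 and 2 at YKL-5-124 24 h, 0 and 14 between compounds at 4 h, 1 and 58 at 24 h, 1 and 54 for THZ1 between times, 23 and 2 for YKL-5-124 between times, and 1 and 55 for the interaction. With the length slope as covariate, 38 were higher at THZ1 4 h, 1 higher and 4 lower at YKL-5-124 4 h, 37 lower at YKL-5-124 24 h, 35 and 10 between compounds at 4 h, and 4 higher for YKL-5-124 between times. Fits of the compared groups alone gave 0 lower at YKL-5-124 4 h, 13 lower at YKL-5-124 24 h and 1 higher for YKL-5-124 between times. Without a filter these were 2 lower at YKL-5-124 4 h and 1 higher between times, and DESeq2 gave 2 lower at YKL-5-124 4 h and 28 higher between compounds at 4 h. The cause of these moves was not tested. Single factors turned sign by library totals at THZ1 24 h, where the log2 fold change was -0.048 for EIF2AK1, -0.14 for EIF3L, 0 for EEF1A2, -0.55 for EIF4H, -0.81 for EIF2B1, -0.66 for EIF2S3, -0.48 for EIF3G, -0.45 for EIF1AX and -0.17 for EIF6. With the length slope it was 0.19 for EEF2K, -0.41 for EIF2B1, 1.44 for EIF5B, -0.43 for EIF1AX and -0.039 for EIF6 at THZ1 24 h, 0.67 for EIF5B and -0.29 for EIF4EBP1 between THZ1 times, and 0.83 for EIF5B in the interaction. Relative log expression and upper-quartile factors and DESeq2 turned no single factor. Over nuclear coding genes the factors took 3.70% of counts at THZ1 24 h.

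Leaving out each library in turn gave 20 to 22 higher and 7 to 9 lower at THZ1 4 h, 24 to 27 and 25 to 26 at THZ1 24 h, 0 and 1 to 2 at YKL-5-124 4 h, and 1 to 3 and 12 to 26 at YKL-5-124 24 h. Between compounds it gave 9 to 18 and 5 to 8 at 4 h, and 33 to 34 and 22 to 24 at 24 h. Between times it gave 23 to 27 and 24 to 25 for THZ1 and 0 to 2 and 14 to 22 for YKL-5-124, and 23 to 27 and 17 to 18 for the interaction. The share of counts ran from 3.82% to 4.00% at THZ1 4 h, 3.484% to 3.503% at THZ1 24 h, 3.504% to 3.63% at YKL-5-124 4 h, 2.88% to 3.08% at YKL-5-124 24 h, and 3.49% to 3.65% in DMSO. In these fits 106 values of single factors lost their call and 0 turned sign.

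The libraries share replicate numbers across groups. The correlations of same-numbered libraries, as deviations from their group means, ran from -0.488 to 0.553 over 30 pairs, 20 over 0.1, so the numbers were not taken as a pairing. With the replicate block, 2 factors were lower at YKL-5-124 4 h and 30 at YKL-5-124 24 h; 16 values of single factors gained a call and 0 lost one. In 18 of the 30 pairs the library was best matched by its own number.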
